A study of Mus musculus with 35 samples.

Results

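The genes described here are the potassium channel subunits of the mouse striatum: every entry of the deposited count table whose symbol is Kcn followed by 1 or more letters and a number. The rule found 93 of 39109 entries, with 92 distinct symbols, since Kcnb2 is listed under 2 Ensembl identifiers. They comprise 18 entries for pore-forming subunits of the Kv1 to Kv4 families (Kcna, Kcnb, Kcnc, Kcnd) and 10 for electrically silent Kv modifiers (Kcnf, Kcng, Kcns, Kcnv). There are 5 for Kv7 channels (Kcnq) and 8 for the EAG family (Kcnh). Another 8 form the class of calcium- or sodium-activated channels (Kcnma, Kcnn, Kcnt), in which Kcnu was placed by symbol prefix only. The rest are 15 for inward rectifiers (Kcnj), 14 for tandem-pore leak channels (Kcnk) and 15 for auxiliary subunits (Kcnab, Kcne, Kcnip, Kcnmb). 1 RNA-seq library was made from the striatum of each of 35 mice aged 21.71 to 23.0 weeks, in a study of what loss of the histone deacetylase HDAC2 from medium-spiny neurons (MSNs), the projection neurons that make up most of the striatum, does in a mouse model of Huntington's disease.

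The Htt+/+ Hdac2 WT group (n = 8; 5 males and 3 females) had normal huntingtin alleles, and 6 of these mice carried 2 floxed Hdac2 alleles and 2 carried 1. The HttQ111/+ Hdac2 WT group (n = 7; 4 males and 3 females) carried 1 knock-in Htt allele with an expanded CAG tract of 110 to 140 repeats and 2 floxed Hdac2 alleles. The Htt+/+ Hdac2 KO group (n = 9; 5 males and 4 females) and the HttQ111/+ Hdac2 KO group (n = 11; 8 males and 3 females; 110 to 144 repeats) carried 2 floxed Hdac2 alleles and a Cre transgene under the Ppp1r1b (DARPP-32) promoter, which acts in MSNs, so that Hdac2 was kept in the other cells of the tissue. None of the Hdac2 WT mice carried Cre, so the presence of Cre and the loss of Hdac2 cannot be told apart.

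Potassium channels let potassium leave a neuron and so set its resting potential, the delay before it fires and how fast it repolarises after a spike. In MSNs, inward rectifiers hold the cell at a very negative resting potential, Kv1 and Kv4 channels slow the approach to the spike threshold, and Kv7 channels carry a slow current that acetylcholine turns down. A functional channel is a complex of pore-forming subunits with auxiliary subunits that alter its gating or its transport to the membrane, and silent modifiers form a channel only together with Kv2 subunits.

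Libraries held 50339179 to 76939791 counts over the genes used, and levels are given as CPM, counts scaled to a common library total, with sequencing depth scaled by the trimmed mean of M values (TMM). The counts of Hdac2 hold exons outside the deleted part and RNA of cells that keep the gene, so they do not check the deletion: the medians were 103, 105, 94.4 and 95.2 CPM in Htt+/+ Hdac2 WT, HttQ111/+ Hdac2 WT, Htt+/+ Hdac2 KO and HttQ111/+ Hdac2 KO. The 13 markers of MSNs, which define striatal tissue, summed to between 6993 and 10743 CPM in each library. The summed level of 8 markers of cortical projection neurons was 497 CPM in HttQ111/+ Hdac2 WT replicate 7, 218 in Htt+/+ Hdac2 KO replicate 6 and 179 in Htt+/+ Hdac2 KO replicate 2, against group medians of 55.6 to 62.8, and results that change without these 3 libraries are given with and without them. Over the lists of 7 other cell types, 2 markers were called higher and 3 lower in the Htt+/+ comparison of Hdac2 KO with WT, and 1 higher and 2 lower in the HttQ111/+ comparison. RNA extraction date was nearly confounded with genotype: only 2 dates held both Hdac2 KO and Hdac2 WT mice, each with 1 KO and 5 WT libraries.

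Among potassium channel genes of Htt+/+ Hdac2 WT striatum, auxiliary subunits of the A-type and Kv1 channels were the most abundant per length of transcript. Kcnip2, the calcium-binding auxiliary subunit of Kv4 channels, was at 131 ± 11.2 CPM per kb of longest transcript (mean ± SD, n = 8) and Kcnab1, a cytoplasmic subunit that speeds inactivation of Kv1 channels, at 108 ± 8.65. Their difference from Kcnj4, a strong inward rectifier at 101 ± 6.73, was near the spread between libraries for Kcnab1 and larger for Kcnip2. Kcnab2, the other abundant Kv1 auxiliary subunit (79.4 ± 8.30), and Kcna1, an axonal Kv1 pore subunit (72.9 ± 4.52), did not differ beyond their spread. Kcnd2, the pore of the somatodendritic A-type current, had 56.7 ± 3.76 CPM per kb, and the weakly rectifying leak channel gene Kcnk1 (55.5 ± 4.61) and the mechanically gated leak channel gene Kcnk2 (53.5 ± 6.64) did not differ from it beyond their spread. Kcnip3, a Kv4 auxiliary subunit that is also known as a calcium-dependent transcriptional repressor, was also among the 10 highest, at 44.7 ± 6.20.

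**Figure D1:**
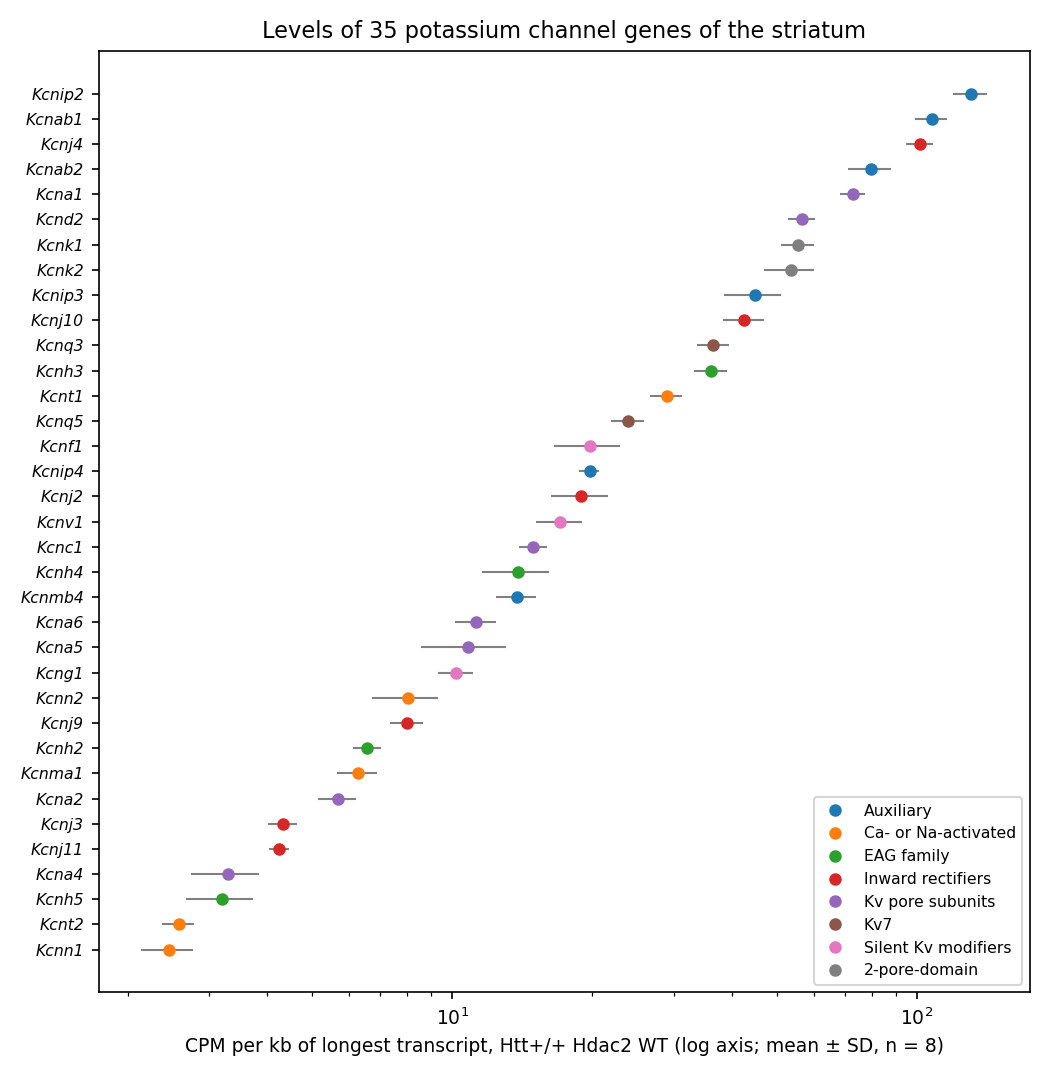
Level of the 35 most abundant of the potassium channel genes named here, in Htt+/+ Hdac2 WT striatum, as CPM per kb of the longest transcript on a log axis (points, means; bars, SD; n = 8), coloured by class. Kcnip2 leads at 131 CPM per kb, and the 10 highest hold no silent modifier, EAG channel or calcium- or sodium-activated channel.

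All 93 entries are accounted for as follows. In at least 1 genotype group, 80 had 6 or more counts in every library, which was required for a test, and 77 to 80 entered each comparison. The other 13 were below this level in every group: Kcna7, Kcna10, Kcne1, Kcne2, Kcnj1, Kcnj13, Kcnj15, Kcnk7, Kcnk15, Kcnk16, Kcnk18, Kcnmb3 and Kcnv2. Of these, Kcnk16 and Kcnk18 were listed at 0 in every library, and 5 had at most 3 counts in any library. Kcnj13, an inward rectifier of epithelia, and Kcne2, an auxiliary subunit, are known for the choroid plexus: Kcnj13 reached 1.73 CPM and Kcne2 0.988 CPM in Htt+/+ Hdac2 WT replicate 1, in which 9 choroid plexus markers summed to 218 CPM against group medians of 33.2 to 44.8. The interval of 27 entries overlaps that of another gene, and for these the counts of both genes may be shared.

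The first question was which potassium channel genes differ when Hdac2 is lost from MSNs. In Htt+/+ mice, 27 of the 79 members tested were called in Hdac2 KO against Hdac2 WT at an adjusted p below 0.05 (edgeR quasi-likelihood F test, Benjamini-Hochberg adjustment over all genes), where 17.8% of all 17126 genes tested were called. Of these, 10 were higher, where the share of all genes was 9.06%, and 17 were lower, where it was 8.79%. In HttQ111/+ mice 22 of 79 were called (16.5% of all genes), of which 8 were higher (7.68%) and 14 lower (8.86%). The members' share called was thus 34.2% in Htt+/+ and 27.8% in HttQ111/+ mice, above the share of all genes in both, and more were lower than higher. The median log2 fold change of the tested members was -0.03 in Htt+/+ and -0.07 in HttQ111/+ mice, beside -0.00135 and -0.00437 over all genes. Since whole striatum was sequenced, fewer cells of a type and less RNA per cell cannot be told apart from these counts in any of these differences. By counting marker-positive cells in sections, the study found no significant loss of MSNs with Hdac2 KO.

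The groups compared in Htt+/+ and in HttQ111/+ mice share no library. Each fit nevertheless used the libraries of every genotype group, and extraction date was nearly confounded with Hdac2 genotype in both. A call in both is therefore not an independent replication. In the same direction, 19 members were called in both, 7 higher (5.54% of all genes were) and 12 lower (5.98%). Of the 7 higher, Kcne3 passed the count minimum only through the KO groups. In CPM, without surrogate variables, the KO and WT groups did not overlap for 3 members higher in KO (2.41% of all genes) and 3 lower (2.29%) in Htt+/+ mice, and for 0 higher (0.833%) and 4 lower (0.6%) in HttQ111/+ mice. Across both Htt genotypes, 2 members had every KO library below every WT library (0.248% of all genes) and 0 the reverse (0.363%). Counts are given for 6 of the classes, in Htt+/+ and then in HttQ111/+ mice, beside the shares of all genes above (9.06% higher and 8.79% lower, then 7.68% and 8.86%). Of 12 auxiliary subunits 2 were higher and 3 lower, then 2 higher and 2 lower. The EAG family had 0 higher and 2 lower of 8 in each Htt genotype, and of 9 silent modifiers 1 was higher and 0 were lower in each. Calcium- or sodium-activated channels had 1 higher and 2 lower of 7, then 2 higher and 2 lower of 8. Of 12 inward rectifiers, 1 was higher and 2 lower, then 1 higher and 1 lower, and of 10 tandem-pore channels 1 was higher and 2 lower, then 1 higher and 1 lower.

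**Figure D2:**
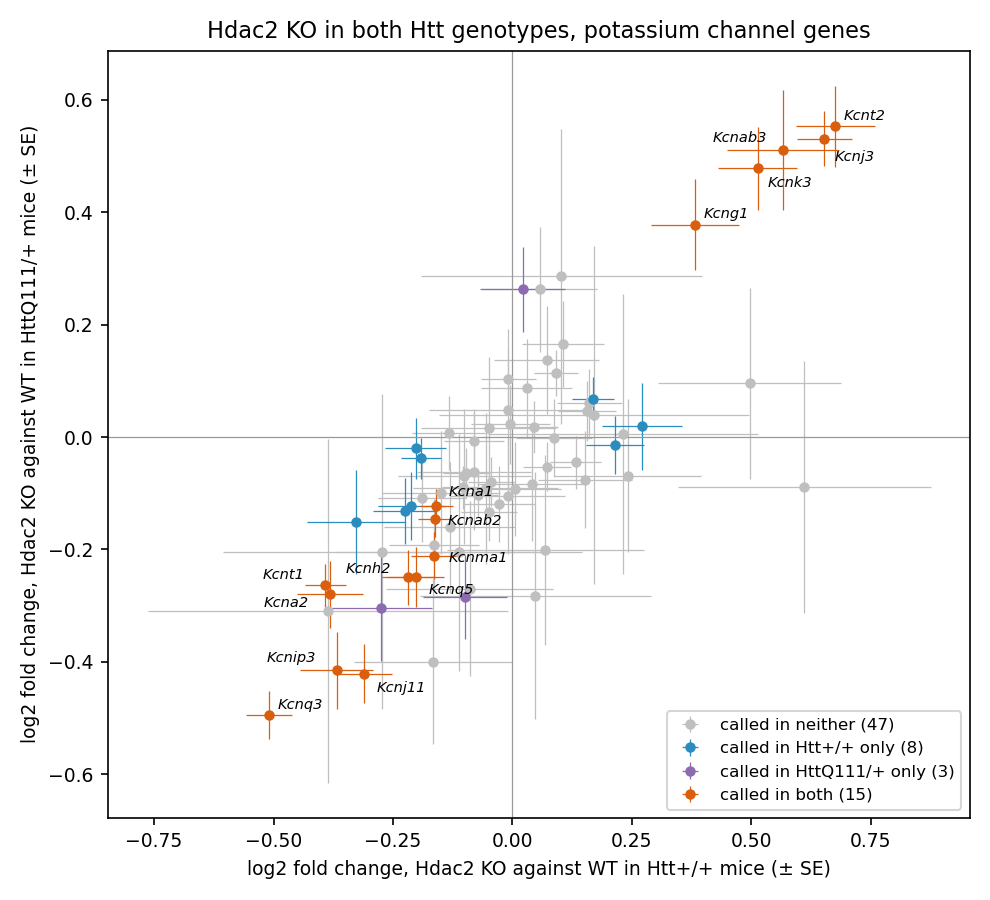
Log2 fold change of potassium channel genes in Hdac2 KO against Hdac2 WT in Htt+/+ mice (horizontal axis) and in HttQ111/+ mice (vertical axis), with bars of ± 1 SE and colours for the comparisons in which it was called. Some members that were tested are not drawn. Of the 73 points drawn, 47 were called in neither, 8 in Htt+/+ only, 3 in HttQ111/+ only and 15 in both, and Kcne3 (2.55 and 1.96) lies outside the axes.

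Kcnq3 and Kcnq5, genes of the M-type current, were lower in Hdac2 KO striatum. Kcnq3 (chr15:65986387-66286224, GRCm38, minus strand), a subunit of most neuronal M-type channels, was reduced the most of all members called lower in both Htt genotypes. Kcnq3 had CPM of 377, 431 and 489.6 (lowest, median and highest library) in Htt+/+ Hdac2 WT and 379, 408 and 479 in HttQ111/+ Hdac2 WT, against 279.5, 297 and 324 in Htt+/+ Hdac2 KO and 240.2, 305 and 319.8 in HttQ111/+ Hdac2 KO. Each of the 20 Hdac2 KO libraries lay below each of the 15 Hdac2 WT libraries. The log2 fold change was -0.51 ± 0.05 (SE; adjusted p = 4.85e-09) in Htt+/+ and -0.49 ± 0.04 (adjusted p = 1.02e-09) in HttQ111/+ mice. Kcnq5, a Kv7 subunit that also joins Kcnq3, had medians of 167, 161, 138 and 135 CPM in Htt+/+ Hdac2 WT, HttQ111/+ Hdac2 WT, Htt+/+ Hdac2 KO and HttQ111/+ Hdac2 KO (the order used from here on), with overlapping ranges. Its values gave log2 fold changes of -0.20 ± 0.06 and -0.25 ± 0.05 (adjusted p = 0.0158 and 0.0012). The interval of Kcnq5 holds the processed pseudogene Gm7658 (33.4 CPM) on the same strand, with which reads could be shared. Kcnq1, the Kv7 subunit of heart and epithelia, was tested in Htt+/+ mice only of these comparisons, with medians of 0.287, 0.22, 0.381 and 0.24 CPM and a log2 fold change of 0.72 ± 0.40 (adjusted p = 0.245). It passed the count minimum only through the Htt+/+ Hdac2 KO group, which favours a higher value there.

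Among the Kv1 pore subunits, Kcna2 and Kcna1 were lower in both Htt genotypes. Kcna2 (chr3:107101567-107106879, plus strand) encodes a low-threshold channel of axons. In Hdac2 WT striata Kcna2 spanned 58.3, 66.5, 76.5 CPM (lowest, median, highest) with Htt+/+ and 60.4, 62.3, 70.4 with HttQ111/+, and in Hdac2 KO striata it spanned 47.2, 53.5, 56.5 and 26.1, 52.6, 69.1. The Htt+/+ groups did not overlap, whereas in HttQ111/+ mice the KO range reached both below and into the WT range, with its lowest value in HttQ111/+ Hdac2 KO replicate 4. The log2 fold changes were -0.38 ± 0.07 (adjusted p = 0.000171) and -0.28 ± 0.06 (adjusted p = 0.00111). Kcna1, which joins Kcna2 in the same axonal channels, was more abundant per kb, with medians of 286, 289, 250.4 and 245 CPM, overlapping ranges and smaller log2 fold changes of -0.16 ± 0.03 and -0.12 ± 0.03 (adjusted p = 0.00133 and 0.00605).

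The pore subunits of the A-type and fast-repolarising currents were not called in both Htt genotypes. Kcnd2 had medians of 289, 277, 264 and 269.8 CPM and log2 fold changes of -0.10 ± 0.04 (adjusted p = 0.0977) and -0.09 ± 0.04 (adjusted p = 0.109), neither past the threshold. Averaged over both Htt genotypes Kcnd2 was called lower (-0.09 ± 0.03, adjusted p = 0.0336), which did not hold without the 3 libraries with high cortical markers (-0.09, adjusted p = 0.146). Kcna4, the rapidly inactivating Kv1 subunit, had medians of 15.6, 15.2, 12.5 and 13.5 CPM and adjusted p of 0.646 and 0.0738. Kcnc1, a Kv3 subunit of fast-spiking neurons, had log2 fold changes of -0.07 in Htt+/+ and -0.10 in HttQ111/+ mice, with adjusted p of 0.282 and 0.0658. Kcnd3 and Kcna5 were called higher in Htt+/+ mice only, at 0.21 (adjusted p = 0.0114) and 0.27 (adjusted p = 0.0227), the former not without the 3 libraries with high cortical markers (0.18, adjusted p = 0.134). The interval of Kcna5 encloses Kcna1 on the same strand, whose level is far higher (269 against 28.2 CPM, medians over all libraries), and its log2 ratio of mean CPM was 0.03, so the value of Kcna5 is uncertain. The 2 entries of Kcnb2 were called in neither comparison (adjusted p of 0.325 and 0.974 in Htt+/+ mice and 0.629 and 0.572 in HttQ111/+ mice).

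Auxiliary subunits changed in both directions. Kcnip3 (chr2:127456498-127522094, minus strand) was lower in Hdac2 KO. Kcnip3 had CPM of 100.1, 120.4 and 155 (lowest, median and highest library) in Htt+/+ Hdac2 WT and 105, 117 and 155 in HttQ111/+ Hdac2 WT, against 78.9, 92.9 and 109 in Htt+/+ Hdac2 KO and 72.8, 90.6 and 95.3 in HttQ111/+ Hdac2 KO. The Htt+/+ groups overlapped and the HttQ111/+ groups did not. For Kcnip3 the log2 fold change was -0.37 ± 0.08 (adjusted p = 0.000791) in Htt+/+ and -0.42 ± 0.07 (adjusted p = 5.51e-05) in HttQ111/+ mice. The other KChIP genes were not called: Kcnip2 had medians of 403, 346, 393 and 401 CPM and adjusted p of 0.951 and 0.184, and Kcnip1 and Kcnip4 had adjusted p between 0.24 and 0.979.

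The Kv1 beta subunits did not move together. Kcnab2 was lower by a small amount in the fit, with log2 fold changes of -0.16 ± 0.04 (adjusted p = 0.00183) and -0.15 ± 0.03 (adjusted p = 0.00203). Its medians were 302, 299, 309.5 and 292 CPM with overlapping ranges, so that the median was not lower in Htt+/+ Hdac2 KO, where the log2 ratio of mean CPM was -0.05. Kcnab1 was called lower in Htt+/+ mice (-0.21 ± 0.07, adjusted p = 0.0315), a call lost without the 3 libraries with high cortical markers (-0.23, adjusted p = 0.0702), and not in HttQ111/+ mice (-0.12 ± 0.06, adjusted p = 0.183). Kcnab3, the least abundant of the 3 per kb, was higher in both. The lowest, median and highest CPM of Kcnab3 were 4.25, 5.46 and 10.4 in Htt+/+ Hdac2 WT, 5.54, 6.94 and 12.2 in HttQ111/+ Hdac2 WT, 9.93, 11 and 13.6 in Htt+/+ Hdac2 KO and 8.22, 11 and 13.8 in HttQ111/+ Hdac2 KO. 1 WT library reached the KO range in each Htt genotype, replicate 2 in Htt+/+ and replicate 7 in HttQ111/+ mice. The log2 fold changes were 0.57 ± 0.12 (adjusted p = 0.000788) and 0.51 ± 0.11 (adjusted p = 0.000926), and the log2 ratio of mean CPM, without surrogate variables, was 0.98 in Htt+/+ mice.

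Of the MinK-related subunits, Kcne3 had the largest fold change of all members, from a level close to the limit of counting. Its counts were 2 to 12 in Htt+/+ Hdac2 WT, 2 to 16 in HttQ111/+ Hdac2 WT, 11 to 29 in Htt+/+ Hdac2 KO and 12 to 46 in HttQ111/+ Hdac2 KO, so that it passed the count minimum only through the KO groups and had to be higher there, and the ranges of counts overlapped. The fitted log2 fold changes were 2.55 ± 0.53 (adjusted p = 0.000831) and 1.96 ± 0.42 (adjusted p = 0.00109), and this gene is named after its values were seen. Kcnmb4, the neuronal beta subunit of BK channels, had medians of 21.5, 22.2, 28.6 and 25.8 CPM and adjusted p of 0.0708 and 0.641.

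**Figure D3:**
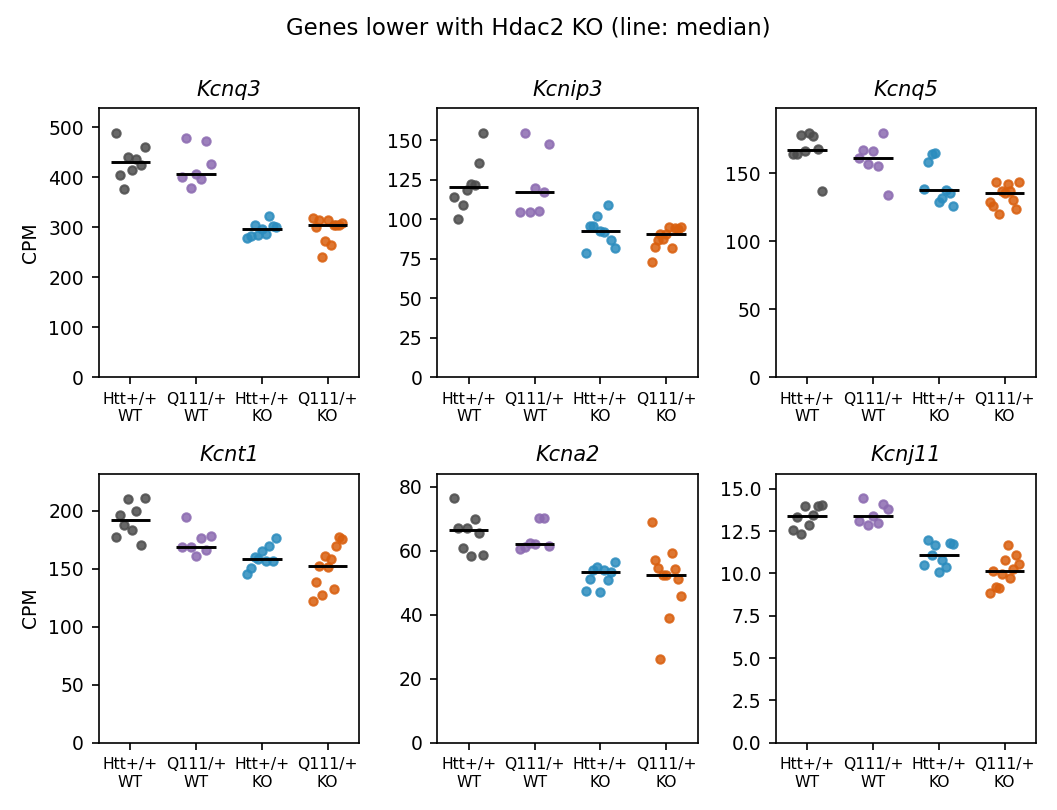
CPM of Kcnq3, Kcnip3, Kcnq5, Kcnt1, Kcna2 and Kcnj11 in each library of the 4 genotype groups (points, libraries; lines, group medians; n = 8, 7, 9 and 11). All Hdac2 KO libraries lie below all Hdac2 WT libraries for Kcnq3 and Kcnj11, and the other 4 genes overlap in at least 1 Htt genotype.

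The 2 sodium-activated channels, whose current follows bursts of spikes, moved in opposite directions. Kcnt1, the Slack subunit (chr2:25863795-25916923, plus strand), was lower in Hdac2 KO. Kcnt1 had CPM of 170.5, 192 and 211 (lowest, median and highest library) in Htt+/+ Hdac2 WT and 161, 169 and 194 in HttQ111/+ Hdac2 WT, against 146, 158 and 177 in Htt+/+ Hdac2 KO and 122, 152 and 177 in HttQ111/+ Hdac2 KO. The ranges overlapped in both Htt genotypes. For Kcnt1 the log2 fold change was -0.39 ± 0.04 (adjusted p = 5.37e-08) in Htt+/+ and -0.26 ± 0.04 (adjusted p = 9.46e-06) in HttQ111/+ mice. Kcnt2, the Slick subunit (chr1:140246216-140612063, plus strand), was higher. The lowest, median and highest CPM of Kcnt2 were 13.2, 15 and 16.1 in Htt+/+ Hdac2 WT, 13.8, 17.1 and 29.2 in HttQ111/+ Hdac2 WT, 19.9, 22.9 and 27.5 in Htt+/+ Hdac2 KO and 19.8, 24.2 and 25.8 in HttQ111/+ Hdac2 KO. The Htt+/+ groups did not overlap, and in HttQ111/+ mice only WT replicate 7, with 29.2 CPM, lay above the lowest KO library. For Kcnt2 the log2 fold change was 0.68 ± 0.08 (adjusted p = 5.94e-07) and 0.55 ± 0.07 (adjusted p = 2.04e-06).

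Kcnma1, the BK channel gated by calcium and voltage, was lower, with medians of 76.8, 77.5, 62.5 and 56.5 CPM, overlapping ranges and log2 fold changes of -0.16 ± 0.05 (adjusted p = 0.0149) and -0.21 ± 0.04 (adjusted p = 0.000572). Its interval contains A830039N20Rik (39.7 CPM), so its counts may be shared. Of the small-conductance SK channels, Kcnn2 was called higher in HttQ111/+ mice only (0.26 ± 0.08, adjusted p = 0.0152, against 0.02 ± 0.09 and adjusted p = 0.914 in Htt+/+ mice), a call lost in 7 of 13 alternatives (0.14, adjusted p = 0.338, without covariates), and Kcnn1 and Kcnn3 in neither (adjusted p of 0.168 to 0.991).

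Among the inward rectifiers, the G protein-gated Kcnj3 was higher and the ATP-sensitive Kcnj11 lower. Kcnj3 (chr2:55435970-55598140, plus strand) encodes GIRK1, which opens when receptors coupled to inhibitory G proteins are activated. In Hdac2 WT striata Kcnj3 spanned 19.8, 22.5, 25.3 CPM (lowest, median, highest) with Htt+/+ and 22.6, 26.9, 63.5 with HttQ111/+, and in Hdac2 KO striata it spanned 29.7, 31.5, 46.1 and 30.9, 34.1, 42.2. The Htt+/+ groups did not overlap, whereas the HttQ111/+ groups did, with the highest of all values in WT replicate 7. The log2 fold change was 0.65 ± 0.06 (adjusted p = 1.27e-09) in Htt+/+ and 0.53 ± 0.05 (adjusted p = 5.3e-09) in HttQ111/+ mice. In HttQ111/+ mice the log2 ratio of mean CPM was 0.14 with that library and 0.40 without it. The other GIRK genes were not called in either comparison: Kcnj9 had adjusted p of 0.0935 and 0.599, and Kcnj5 and Kcnj6 had group medians of at most 1.05 CPM.

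Kcnj11 (chr7:46098725-46099897, minus strand) encodes Kir6.2, the pore of the KATP channel that opens when cellular ATP falls. Kcnj11 had CPM of 12.3, 13.4 and 14.1 (lowest, median and highest library) in Htt+/+ Hdac2 WT and 12.9, 13.4 and 14.4 in HttQ111/+ Hdac2 WT, against 10.1, 11.1 and 12 in Htt+/+ Hdac2 KO and 8.87, 10.1 and 11.7 in HttQ111/+ Hdac2 KO. All Hdac2 KO libraries lay below all Hdac2 WT libraries, as for Kcnq3. For Kcnj11 the log2 fold change was -0.31 ± 0.06 (adjusted p = 0.000267) in Htt+/+ and -0.42 ± 0.05 (adjusted p = 7.6e-07) in HttQ111/+ mice. Kcnj8, the KATP pore of vascular mural cells, had medians of 3.65, 4.03, 4.11 and 4.33 CPM and adjusted p of 0.724 and 0.765.

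The inward rectifiers that set the resting potential of MSNs were not called in both Htt genotypes. Kcnj4 had medians of 219.5, 184, 207 and 192 CPM and was not called (adjusted p = 0.449 and 0.96). Kcnj2, another strong rectifier, had medians of 107, 87.9, 75.5 and 78.3 CPM and was called lower in Htt+/+ mice (-0.22 ± 0.07, adjusted p = 0.0176), a call lost without the 3 libraries with high cortical markers (-0.18, adjusted p = 0.146), and not in HttQ111/+ mice (-0.13 ± 0.06, adjusted p = 0.131). Its log2 ratio of mean CPM in Htt+/+ mice, without surrogate variables, was -0.49. Kcnj10 and Kcnj16, the weak rectifiers of astrocytes, had medians of 225, 223, 272 and 252 CPM and of 6.26, 7.72, 9.05 and 9.97 CPM, and neither was called in Htt+/+ (adjusted p = 0.184 and 0.816) or HttQ111/+ mice (adjusted p = 0.0555 and 0.11). Averaged over both Htt genotypes, Kcnj10 was called higher (0.11 ± 0.03, adjusted p = 0.0205), which did not hold without the 3 libraries with high cortical markers (0.06, adjusted p = 0.324).

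Of the tandem-pore channels, the acid-sensitive Kcnk3 (TASK1; chr5:30588170-30625270, plus strand) was higher in Hdac2 KO. The lowest, median and highest CPM of Kcnk3 were 6.36, 8.50 and 9.45 in Htt+/+ Hdac2 WT, 7.21, 7.98 and 12.8 in HttQ111/+ Hdac2 WT, 11.5, 12.3 and 14.5 in Htt+/+ Hdac2 KO and 10.1, 12.5 and 13.8 in HttQ111/+ Hdac2 KO. The Htt+/+ groups did not overlap, and in HttQ111/+ mice only WT replicate 7 reached the KO range. The log2 fold change was 0.51 ± 0.08 (adjusted p = 3.01e-05) in Htt+/+ and 0.48 ± 0.07 (adjusted p = 2.2e-05) in HttQ111/+ mice. Kcnk9, the other TASK channel gene of neurons, was called lower in HttQ111/+ mice (-0.30 ± 0.10, adjusted p = 0.026), a call lost without the 3 libraries with high cortical markers (-0.26, adjusted p = 0.0947). Kcnk1 and Kcnk2, more abundant per kb, were called lower in Htt+/+ mice only, at -0.19 ± 0.04 (adjusted p = 0.00161) and -0.20 ± 0.06 (adjusted p = 0.026), and of these Kcnk2 was not called without those libraries (-0.16, adjusted p = 0.160).

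The silent modifier Kcng1, which forms channels together with Kv2 subunits, was higher in Hdac2 KO. In Hdac2 WT striata Kcng1 spanned 35.7, 42.8, 46.6 CPM (lowest, median, highest) with Htt+/+ and 41.7, 53.6, 58.7 with HttQ111/+, and in Hdac2 KO striata it spanned 41.2, 53.5, 63.4 and 49.5, 63.7, 82.4. The ranges overlapped in both comparisons. The log2 fold change was 0.38 ± 0.09 (adjusted p = 0.00329) in Htt+/+ and 0.38 ± 0.08 (adjusted p = 0.00114) in HttQ111/+ mice. The silent modifiers Kcnf1 and Kcnv1, more abundant per kb, were not called (adjusted p of 0.864 and 0.369 in Htt+/+ and 0.264 and 0.478 in HttQ111/+ mice).

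In the EAG family, Kcnh2 (ERG1), a slowly deactivating channel, was called lower in both Htt genotypes, in fits with surrogate variables. Its medians were 28.2, 28.3, 25.7 and 26.6 CPM and its ranges overlapped, and the log2 fold changes were -0.22 ± 0.06 (adjusted p = 0.00534) and -0.25 ± 0.05 (adjusted p = 0.000472). Without covariates they were -0.07 (adjusted p = 0.464) and -0.16 (adjusted p = 0.113), and 7 of 13 alternatives lost the call in each Htt genotype. Kcnh4 (ELK1) was called lower in Htt+/+ mice only (-0.33 ± 0.10, adjusted p = 0.0239, against -0.15 ± 0.09 and adjusted p = 0.304), and Kcnh5 (EAG2) in HttQ111/+ mice only (-0.28 ± 0.07, adjusted p = 0.00749, against -0.10 ± 0.09 and adjusted p = 0.516).

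**Figure D4:**
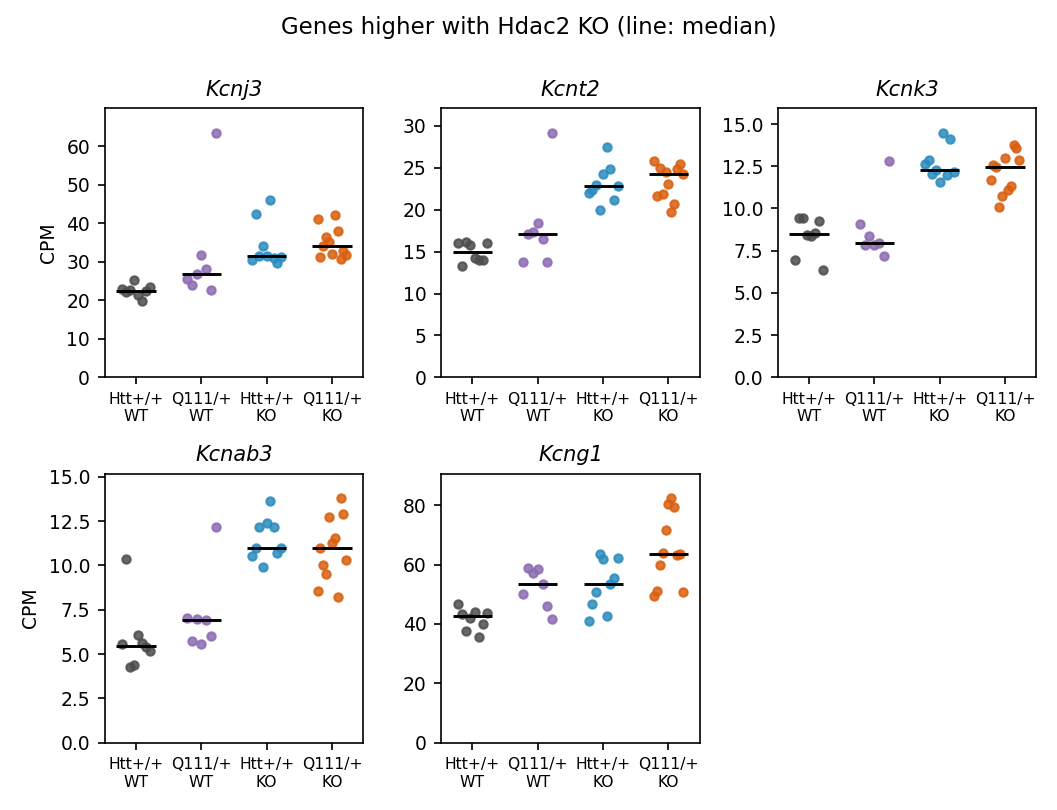
CPM of Kcnj3, Kcnt2, Kcnk3, Kcnab3 and Kcng1 in each library of the 4 genotype groups (points, libraries; lines, group medians; n = 8, 7, 9 and 11). Medians are higher in Hdac2 KO than in Hdac2 WT within each Htt genotype, and HttQ111/+ Hdac2 WT replicate 7 is the highest of its group for the first 4 genes, at 63.5 CPM for Kcnj3.

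Promoter sequence was examined for members that moved in both Htt genotypes, as the 250 bases upstream of each start site in RefSeq on GRCm38.p6. Of the 92 symbols 67 had a matching entry, with 92 promoters, among them 3 of the 7 members called higher (4 promoters) and 6 of the 12 called lower (11 promoters). The letters CCAAT, on either strand, were present in 3 of the 4 promoters of the first set and in 4 of the 11 of the second, in 29.3% of all potassium channel promoters and in 33.8% of the 32851 promoters of all genes. The GC box letters GGGCGG were in 1 of 4, in 4 of 11, in 44.6% and in 32.7%, and TATAAA in 0 of 4, 0 of 11, 3.26% and 12.4%. Potassium channel promoters had a median GC content of 58.6%, against 52.4% for all genes. A promoter of each of 2 members called higher, Kcnt2 (chr1:140245468-140245717, plus strand) and Kcnj3 (chr2:55435720-55435969, plus strand), and of 2 called lower, Kcnip3 (chr2:127522095-127522344, minus strand, the first of 3 start sites) and Kcnq5 (chr1:21962651-21962900, minus strand, the first of 2), is shown from 5′ to 3′ because it holds CCAAT or its reverse complement ATTGG, in capitals. The second promoter of Kcnq5 (chr1:21961943-21962192, minus strand) follows as one of the larger number in the lower set that hold neither.
Kcnt2: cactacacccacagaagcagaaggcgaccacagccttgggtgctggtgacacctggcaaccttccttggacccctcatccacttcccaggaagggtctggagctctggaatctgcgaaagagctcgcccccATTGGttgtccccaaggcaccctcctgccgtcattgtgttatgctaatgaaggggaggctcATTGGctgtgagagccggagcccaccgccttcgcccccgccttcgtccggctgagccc
Kcnj3: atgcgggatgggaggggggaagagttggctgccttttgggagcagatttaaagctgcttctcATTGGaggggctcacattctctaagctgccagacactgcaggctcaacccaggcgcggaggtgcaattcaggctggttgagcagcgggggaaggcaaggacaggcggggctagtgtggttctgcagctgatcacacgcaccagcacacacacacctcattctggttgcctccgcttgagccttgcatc
Kcnip3: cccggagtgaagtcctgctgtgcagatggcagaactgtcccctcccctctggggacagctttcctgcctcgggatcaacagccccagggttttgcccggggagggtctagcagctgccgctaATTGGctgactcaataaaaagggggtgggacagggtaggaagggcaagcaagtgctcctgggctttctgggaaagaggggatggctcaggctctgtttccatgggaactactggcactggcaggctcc
Kcnq5, first start site: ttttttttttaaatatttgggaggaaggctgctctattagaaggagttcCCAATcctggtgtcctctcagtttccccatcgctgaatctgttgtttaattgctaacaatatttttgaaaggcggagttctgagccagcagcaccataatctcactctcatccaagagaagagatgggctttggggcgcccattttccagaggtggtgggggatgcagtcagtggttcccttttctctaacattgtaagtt
Kcnq5, second start site: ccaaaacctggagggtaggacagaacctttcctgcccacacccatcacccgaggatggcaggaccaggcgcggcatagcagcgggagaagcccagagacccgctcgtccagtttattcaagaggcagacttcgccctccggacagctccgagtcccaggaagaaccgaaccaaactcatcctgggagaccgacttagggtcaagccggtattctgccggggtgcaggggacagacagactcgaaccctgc
CCAAT stands on the template strand of the gene in Kcnt2 (2 matches), Kcnj3 and Kcnip3 and on the coding strand in the first promoter of Kcnq5, and a match of letters does not show that a factor binds there.

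Kcna6, a Kv1 pore subunit, overlaps the antisense gene Gm26673. Kcna6 lies at chr6:126708329-126740151 on the minus strand and Gm26673 at chr6:126718684-126741601 on the plus strand (GRCm38), with 21468 bases in common, of which 1832 are exonic in both. Gm26673 was lower in Hdac2 KO, with CPM of 2.92 to 6.91 in Htt+/+ Hdac2 WT, 2.57 to 7.45 in HttQ111/+ Hdac2 WT, 1.08 to 2.51 in Htt+/+ Hdac2 KO and 0.902 to 2.40 in HttQ111/+ Hdac2 KO. Every KO library was below every WT library, and the log2 fold changes were -1.79 ± 0.17 (adjusted p = 5.6e-09) and -1.64 ± 0.15 (adjusted p = 5.1e-09). Kcna6 had CPM of 58.8, 64.6 and 80.7 (lowest, median and highest library) in Htt+/+ Hdac2 WT and 63.3, 71.9 and 97.8 in HttQ111/+ Hdac2 WT, against 66, 77.5 and 90.7 in Htt+/+ Hdac2 KO and 68.3, 75 and 85.8 in HttQ111/+ Hdac2 KO. The ranges of Kcna6 overlapped, and its log2 fold change was 0.17 ± 0.04 (adjusted p = 0.00618) in Htt+/+ and 0.07 ± 0.04 (adjusted p = 0.257) in HttQ111/+ mice. The call in Htt+/+ mice was lost without the 3 libraries with high cortical markers (0.09, adjusted p = 0.424). The count of Gm26673 was 4.35 to 8.69% of that of Kcna6 in Htt+/+ Hdac2 WT, 3.75 to 8.90% in HttQ111/+ Hdac2 WT, 1.24 to 3.57% in Htt+/+ Hdac2 KO and 1.21 to 2.89% in HttQ111/+ Hdac2 KO. The library kit marks strand, but whether the counting used it is not given in the sources used here, and without it reads of the shared exons cannot be told apart.

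**Figure D5:**
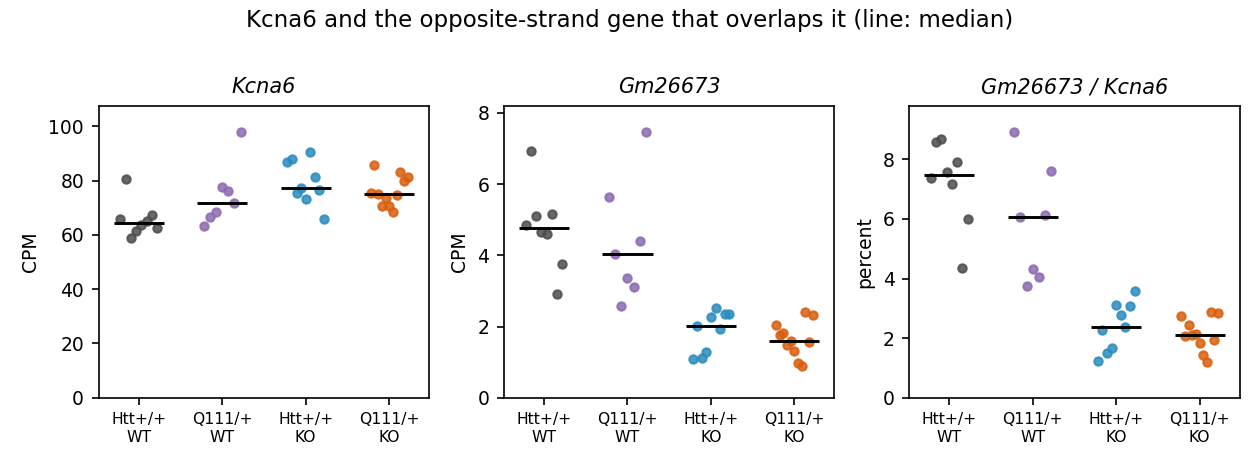
CPM of Kcna6 and of Gm26673, and the count of Gm26673 as a percentage of that of Kcna6, in each library of the 4 genotype groups (points, libraries; lines, group medians; n = 8, 7, 9 and 11). For Gm26673 and for the percentage every Hdac2 KO library lies below every Hdac2 WT library, while the Kcna6 ranges overlap.

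Extraction date limits how far these differences can be assigned to Hdac2. With date as a covariate, 9 members remained called in Htt+/+ mice (Kcnab3, Kcne3, Kcnip3, Kcnj11, Kcnk3, Kcnq3, Kcnq5, Kcnt1 and Kcnt2; Kcne3 had passed the count minimum only through the KO groups), where 4.80% of all genes were, and 5 in HttQ111/+ mice (Kcne3, Kcnip3, Kcnj11, Kcnq3 and Kcnq5), where 1.93% of all genes were. Kcnj3 had a log2 fold change of 0.57 (adjusted p = 0.0923) in Htt+/+ and 0.10 (adjusted p = 0.876) in HttQ111/+ mice in that fit, and Kcna2 -0.03 (adjusted p = 0.951) and -0.000504 (adjusted p = 0.999). Each of the 2 dates that held both Hdac2 genotypes had 1 KO library, which is also part of the comparisons above, so the values within them have no test. On 27 May Kcnq3 had 299.9 CPM in Htt+/+ Hdac2 KO against 377 to 440.3 in the 5 WT libraries, Kcnj11 11.7 against 12.3 to 14.0 and Kcnj3 31.4 against 19.8 to 28.1. On 25 May, in HttQ111/+ Hdac2 KO, Kcnq3 had 319.8 CPM against 408 to 460.5 and Kcnj11 8.87 against 12.8 to 14.1. Kcnj3 had 41.1 against 21.3 to 63.5, within the WT range. Kcnq3 and Kcnj11 had every KO library below every WT library, so their place within a date was fixed in advance. Of the 7 members called higher in both Htt genotypes, 1 (Kcne3) lay above the WT range on 25 May and 7 on 27 May. Of the 12 called lower, 9 lay below it on each date, and Kcna2 lay above it on 25 May (69.1 CPM against 58.3 to 65.7).

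Some calls depended on the surrogate variables. Without any covariate, the calls of Kcnab2, Kcnd3, Kcna5, Kcnh2, Kcnh4 and Kcnk2 in Htt+/+ mice and of Kcnab2, Kcnh2, Kcnj3, Kcnk9 and Kcnn2 in HttQ111/+ mice did not pass, with Kcnj3 at 0.14 (adjusted p = 0.542) and Kcnab2 at -0.06 (adjusted p = 0.609) in Htt+/+ and -0.12 (adjusted p = 0.312) in HttQ111/+ mice.

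Whether the difference with Hdac2 loss depends on the Htt genotype was tested directly. None of 80 members passed the interaction test in edgeR, where 1 of 17346 genes did (0.00577%), with 4 members higher and 5 lower at an unadjusted p below 0.05 (2.5% and 3.13% of all genes, 5.63% in all), and DESeq2 called 0. The members called in 1 Htt genotype alone were Kcna5, Kcna6, Kcnd3, Kcnab1, Kcnh4, Kcnj2, Kcnk1 and Kcnk2 in Htt+/+ mice and Kcnn2, Kcnh5 and Kcnk9 in HttQ111/+ mice, listed to complete the counts above after their values were seen. Their differences between Htt genotypes did not pass the test, the smallest adjusted p among them being 0.6 for Kcnd3 (log2 difference of -0.23 ± 0.07). Averaged over both Htt genotypes, 28 of 80 members were called with Hdac2 loss, 9 higher (12.9% of all genes) and 19 lower (12.1%), where 25% of all genes were called.

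The second question was which members differ with the HttQ111 allele. In Hdac2 WT mice 0 of 77 members were called by edgeR (0.403% of all genes). At an unadjusted p below 0.05, 7 were higher and 8 lower (5.35% and 5.5% of all genes, 10.9% in all). DESeq2 called 2 (0.899% of all genes), Kcnj3 (0.21, adjusted p = 0.0291) and Kcnab1 (-0.24, adjusted p = 0.0367). The count was 7 with mouse ID series as a covariate (2 higher and 5 lower; 4.89% of all genes) and 12 without the mice of ID series A (3 higher and 9 lower; 5.24%). In Hdac2 KO mice 0 of 80 were called (edgeR; 0.00584% of all genes), with 3 higher and 10 lower at an unadjusted p below 0.05 (3.26% and 4.27%, 7.52% in all), and DESeq2 called 0. Averaged over both Hdac2 genotypes, 4 of 80 members passed, where 1.27% of all genes did: Kcng1 and Kcnj3 were higher (0.432% of all genes) and Kcnab1 and Kcnh3 lower (0.836%).

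Kcng1, for which all values are given above, had medians of 42.8 CPM in Htt+/+ Hdac2 WT and 53.6 in HttQ111/+ Hdac2 WT, and of 53.5 and 63.7 in the KO groups, with overlapping ranges in both comparisons. The averaged log2 fold change was 0.30 ± 0.06 (adjusted p = 0.00531), from 0.30 in Hdac2 WT and 0.30 in Hdac2 KO mice. Kcnj3 was higher by 0.15 ± 0.03 (adjusted p = 0.0217), with overlapping ranges, and this call was lost in 7 of 12 alternatives. The lowest, median and highest CPM of Kcnab1 were 418, 476 and 527 in Htt+/+ Hdac2 WT, 326, 365 and 458 in HttQ111/+ Hdac2 WT, 334, 390.2 and 422 in Htt+/+ Hdac2 KO and 312, 356 and 402 in HttQ111/+ Hdac2 KO. The ranges overlapped, and the averaged log2 fold change of Kcnab1 was -0.19 ± 0.04 (adjusted p = 0.014). Kcnh3 (ELK2), a forebrain channel active near rest, had medians of 133, 109.6, 132 and 113 CPM and -0.12 ± 0.03 (adjusted p = 0.0397). Without the 3 libraries with high cortical markers only Kcng1 passed (0.29, adjusted p = 0.0120), with Kcnab1 at -0.20 (adjusted p = 0.0566), Kcnh3 at -0.13 (adjusted p = 0.0787) and Kcnj3 at 0.13 (adjusted p = 0.2). The MSN markers moved with the same allele: their summed medians were 10287 CPM in Htt+/+ and 7642 in HttQ111/+ Hdac2 WT mice, 9842 and 8676 in the KO groups, and 8 of 13 were called lower in the averaged effect. Their part in these 4 results was not tested.

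Both alleles together, HttQ111/+ Hdac2 KO against Htt+/+ Hdac2 WT, gave 30 of 79 members called (21.2% of all genes), 8 higher (10.2%) and 22 lower (11%). This comparison shares libraries with the others. Of the 30, Kcnj4, Kcnd2, Kcnh3, Kcnc1 and Kcnj6 were called in neither comparison of Hdac2 KO with WT, and the last was named after its value was seen. They were lower, by log2 fold changes of -0.18 ± 0.06 (adjusted p = 0.0285), -0.15 ± 0.04 (adjusted p = 0.00753), -0.20 ± 0.05 (adjusted p = 0.00208), -0.11 ± 0.04 (adjusted p = 0.0487) and -0.46 ± 0.15 (adjusted p = 0.0311). The call of Kcnc1 was lost in 7 of 13 alternatives, and its log2 ratio of mean CPM was -0.05. Without the 3 libraries with high cortical markers 25 members were called, 7 higher and 18 lower, where 17.5% of all genes were called.

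The summed level of the 93 entries was 5792 ± 183 CPM (SD, n = 8) in Htt+/+ Hdac2 WT, 5489 ± 346 (n = 7) in HttQ111/+ Hdac2 WT, 5297 ± 134 (n = 9) in Htt+/+ Hdac2 KO and 5098 ± 275 (n = 11) in HttQ111/+ Hdac2 KO. The lowest Htt+/+ Hdac2 WT library (5448.5) was below the highest Htt+/+ Hdac2 KO library (5465), so these groups overlapped.

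Partners and relatives without a Kcn number were followed with a list of 20 genes, of which 19 were in the table. In Htt+/+ mice 3 of 16 tested were higher in Hdac2 KO and 4 lower, where 9.06% and 8.79% of all genes were, and in HttQ111/+ mice 2 of 17 were higher and 4 lower (7.68% and 8.86% of all genes). Lrrc55, a gamma subunit of BK channels, was higher at 0.80 and 0.50 (log2 fold changes in Htt+/+ and HttQ111/+ mice). Dpp6, which moves Kv4 channels to the membrane, was lower at -0.23 and -0.21, and its paralogue Dpp10 was called in Htt+/+ mice only, at 0.40. Cntnap2, which anchors Kv1 channels beside the node of Ranvier, was lower at -0.29 and -0.38, as was Adam22 of the Kv1 complex (-0.13 and -0.10). The pacemaker channel gene Hcn2 was lower in the fit (-0.14 and -0.14), but its median CPM was not lower in KO. The medians of Hcn2 were 140.5 in Htt+/+ Hdac2 WT and 145 in Htt+/+ Hdac2 KO, and 126 and 128 in the HttQ111/+ groups.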

How the data were processed

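RNA from 35 striata was sequenced from stranded poly(A) libraries. According to the submitters' processing notes and the study's methods, the authors aligned reads to GRCm38 with GSNAP (2015-06-23), and with bedtools they counted uniquely aligned reads per Ensembl gene. The deposited values are raw read counts per gene, not normalized by the authors. Of 274 counts above 0 in 15 low members, 218 (79.6%) were even, as when both mates of a pair are counted, so reads are not independent molecules. An enclosing gene had fewer counts than a gene inside it in 141 of 399 same-strand pairs, so the counts are not sums over whole gene intervals.

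From the counts, 92 ERCC entries, 2 mitochondrial rRNA genes and 6152 genes with a span of at most 250 bases were removed, and 32863 genes remained. A gene was tested where each library of at least 1 compared group had 6 counts. All 35 libraries were fitted with edgeR 4.0.16 (R 4.3.3; TMM, glmQLFit, glmQLFTest), with 9 surrogate variables per fit from sva 3.50.0, and p was adjusted by Benjamini-Hochberg over all genes tested. The 5 pairwise comparisons were fitted on their own genes, and the averages and the interaction on 17346. CPM are not adjusted for surrogate variables. The fit of the Htt+/+ comparison of Hdac2 KO with WT was also run on simulated counts. These held no effect of extraction date, mouse ID series or tissue composition, so that run cannot address them.

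The members, the lists of cell type markers and related genes, and the rule for naming were chosen with earlier results of these data known. Members were named where they ranked among the 10 highest or lowest averaged changes called in both Htt genotypes, passed an HttQ111 or interaction test, changed by at least 0.3 (log2) in only 1 Htt genotype, were among the 10 most abundant per kb, or have a known striatal or glial role. Some genes that this rule names, and 1 related gene, are in the counts but not reported here. Level per kb used the longest GENCODE transcript. For some members, as Kcna2, Kcna4 and Kcnj11, that transcript is longer than the gene interval of the count table, so their level per kb may be understated. Replicates are separate mice. Alternatives were no covariates, sex, extraction date, mouse ID series or replicate number as covariates, males only, no mice of ID series A, RLE normalization, DESeq2 1.42.0, no count minimum, short genes kept, and the compared groups alone. Leaving out 3 libraries with over 150 CPM of cortical markers was chosen after seeing the data.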

Additional observations from a re-analysis of the deposited data

Results flagged for a closer look

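In 102 groups of 7 to 9 libraries that were examined, 15 values lay so far from the other libraries of their group that Dixon's test singled them out. The HttQ111/+ Hdac2 KO group with 11 libraries was not examined. Chance gives about 1 in 20 groups where groups are independent and values normally distributed. Here the same libraries recur for each gene, so that rate does not apply to the 15 values. Of these, 8 were the highest value of HttQ111/+ Hdac2 WT replicate 7, in which cortical markers summed to 497 CPM: 97.8 CPM for Kcna6 (others 63.3 to 77.7), 404 for Kcnab2 (270.0 to 314), 12.2 for Kcnab3 (5.54 to 7.04), 170.4 for Kcnc1 (107 to 124), 63.5 for Kcnj3 (22.6 to 31.7), 12.8 for Kcnk3 (7.21 to 9.08), 7.17 for Kcnk9 (3.92 to 4.64) and 29.2 for Kcnt2 (13.8 to 18.4). The part of cortical RNA in these values was not tested.

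In Htt+/+ Hdac2 WT mice, replicate 2 was highest for Kcna6 (80.7 CPM, others 58.8 to 67.3) and Kcnab3 (10.4, others 4.25 to 6.08). Replicate 9 was highest for Kcnab2 (386, others 280.5 to 320.1) and Kcnh3 (156, others 121 to 135) and lowest for Kcnq5 (137, others 164 to 179). Replicate 1, the library with the highest choroid plexus markers, was highest for Kcnj13 (1.73, others 0 to 0.558). In HttQ111/+ Hdac2 WT mice, replicate 5 was highest for Kcnh2 (33.6, others 26.2 to 29.4).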

How the results depend on the processing

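Over 98 called member results and 1245 alternative values, 1051 kept their direction and call, 193 kept their direction below the threshold and 1 reversed, and 30 results were called under every alternative. Extraction date as a covariate cost the most: 9 members were called with Hdac2 loss in Htt+/+ mice instead of 27, 5 in HttQ111/+ mice instead of 22, 6 in the average instead of 28, and 9 with both alleles instead of 30. The shares of all genes called in these fits were 4.80%, 1.93%, 4.62% and 4.67%. Date is nearly confounded with genotype. With date, Kcnk1 in the averaged Hdac2 effect (0.0417, adjusted p = 0.847) reversed. The 2 compared groups alone gave 42 members in Htt+/+ mice, where 29.7% of all genes were called instead of 17.8%. For HttQ111 in Hdac2 WT mice, 0 members became 1 without covariates (0.292% of all genes called), 1 with sex (0.292%) and 3 with date (2.45%). They became 7 with ID series (4.89%), 2 with DESeq2 (0.899%) and 12 without the mice of ID series A (3 higher, 9 lower, 5.24%). The averaged HttQ111 effect gave 9 members without ID series A (4.72% of all genes) and 1 without the 3 libraries high in cortical markers (0.522%), instead of 4 (1.27%). All other counts, RLE normalization, no count minimum, short genes kept and males only included, stayed within 1.5 times. With replicate number as a block, 32 members were called in Htt+/+ mice (25.4% of all genes) and 18 in HttQ111/+ mice (10.8%). The averaged Hdac2 and HttQ111 effects then gave 32 (30.4%) and 6 (2.10%), and the interaction 0. The numbers did not pair the mice: profiles with the same number correlated at a median r of 0.04 (45 pairs) and with different numbers at -0.01 (410 pairs). Members near or below 1 CPM rested on few counts, as Kcnj6 (24 to 70 per library) and Kcne3 (12 to 46) in HttQ111/+ Hdac2 KO.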
